A study of Mus musculus with 6 samples.

Results

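The genes described here are 10 genes of dendritic cells and of antigen presentation on MHC class II, *H2-Aa*, *H2-Ab1*, *H2-Eb1*, *Cd74*, *Ciita*, *Zbtb46*, *Xcr1*, *Clec9a*, *Batf3* and *Irf8*, chosen by name because dendritic cells depend on Flt3 ligand. All 10 were found among the 50600 genes of the count table, and 9 of them, all but *Xcr1*, were among the 13475 protein-coding genes that had more than 1 CPM in at least 2 libraries and were tested, where CPM are read counts scaled to a common library size. *Xcr1* stayed below that level and is described by its counts. The libraries were made from cardiac side population (SP) cells, which are heart cells sorted because they pump out the DNA dye Hoechst. There were 3 libraries from wild-type (wt) C57BL/6NRj mice and 3 labelled flt3L-/-, from the strain C57BL/6Flt3Ltml/mx. Every cell of an animal of that strain lacks the ligand gene's function by design. The mice were 8 to 12 weeks old. Each library pooled the hearts of 4 mice after removal of cardiomyocytes and erythrocytes, and the methods name no removal of leukocytes from the sequenced sort. A wt and an flt3L-/- sort were made on each of 3 dates, and these pairs are numbered 1, 2 and 3 by date. The dates of pairs 1 and 2 fell in the same month, and that of pair 3 fell in the following year.

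MHC class II molecules are pairs of an alpha and a beta chain that display peptides from endocytosed proteins to CD4+ T cells. Their chains are held together during assembly by the invariant chain, the product of *Cd74*, and the genes of all of them are switched on by the coactivator CIITA. Dendritic cells, B cells and activated macrophages carry class II molecules, and interferon gamma induces them in other cells, endothelial cells included. Conventional dendritic cells, the main presenters of antigen to naive T cells, need Flt3 ligand to develop. The cDC1 branch of them, which recognizes dead cells through the receptor CLEC9A and carries the chemokine receptor XCR1, needs the transcription factors IRF8 and BATF3. ZBTB46 marks conventional dendritic cells among leukocytes and is also made by endothelial cells, and IRF8 is shared with macrophages and B cells.

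Total counts lay between 24370913 and 31145519 per library, and 3 counts, taken as the detection limit, were between 0.109 and 0.127 CPM. This limit covers counting error only, since the reads carry no molecular identifiers. *Flt3l* itself was read at 8.67, 10.8 and 12.1 CPM in the wt libraries of pairs 1, 2 and 3 and at 13.6, 12.4 and 14.4 CPM in the libraries labelled flt3L-/-. The counts of the targeted gene thus did not mark the knockout, the deleted part of the gene is not given in the sources used here, and the groups below are named by their labels. Read counts do not show whether ligand protein is made, which the study measured by ELISA in medium of cultured SP cells of both strains. The gene of the receptor, *Flt3*, which marks dendritic cells and early progenitors, had 0, 71 and 115 counts in wt and 6, 30 and 11 counts in flt3L-/-.

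Class II promoters are known for an X box and a Y box, short motifs set a fixed distance apart that are bound by the factors with which CIITA works. The letters GCAAC (from the X box) and CTGATTGG (from the Y box, which holds a CCAAT motif read on the other strand) were searched on both strands of the RefSeq windows from 250 bases before to 50 bases after each gene start (GRCm38.p6). Of the 10 genes, 7 had a window, and *H2-Ab1*, *Cd74* and *Ciita* had none. Both letter strings followed each other on 1 strand within 40 bases in 54 of 32851 windows, or 0.164%. Among the members with a window they did so in *H2-Aa* and *H2-Eb1*, and also in 2 further class II genes, *H2-Eb2* and *H2-Oa*. They did not in the related genes *H2-DMa*, *H2-DMb1*, *H2-DMb2* and *H2-Ob*, whose windows held no CTGATTGG. The 4 stretches with both strings are shown from the same strand as the gene, with the matches in capitals. In *H2-Aa* the palindrome TGACGTCA, known as a cAMP response element and found in 1.79% of windows, lies between them and is also in capitals.
H2-Aa chr17:34287862-34287909, minus strand: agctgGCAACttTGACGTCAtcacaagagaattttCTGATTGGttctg
H2-Eb1 chr17:34305771-34305817, plus strand: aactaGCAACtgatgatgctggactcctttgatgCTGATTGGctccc
H2-Eb2 chr17:34325538-34325584, plus strand: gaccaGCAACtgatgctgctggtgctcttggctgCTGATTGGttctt
H2-Oa chr17:34092298-34092345, plus strand: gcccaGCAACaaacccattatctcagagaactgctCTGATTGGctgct
The gap between the letter strings was 25 bases in *H2-Aa* and *H2-Oa* and 24 bases in *H2-Eb1* and *H2-Eb2*. Alone, GCAAC was in 35.2% and CTGATTGG in 4.1% of windows. Of the dendritic genes, *Irf8* held CTGATTGG and *Clec9a* held GCAAC in a window, and *Zbtb46*, *Xcr1* and *Batf3* held neither string. *H2-Eb2*, despite its shared letters, had 0 counts in all 6 libraries, and *H2-Oa* had between 0 and 15 counts.

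The genes of the class II chains and the invariant chain differed between the groups in opposite directions on different sorting dates. In both groups they had their lowest levels in pair 1, where the flt3L-/- library was below its wt partner, and in pairs 2 and 3 the flt3L-/- library was above its partner. None of the 4 genes differed between the groups by more than the spread between pairs. *H2-Ab1* (ENSMUSG00000073421, chr17:34257689-34269419, plus strand, mm10), which encodes the beta chain of the molecule I-A, was read at 22.4, 36.4 and 37.5 CPM in the wt libraries of pairs 1, 2 and 3 and at 11.4, 65.7 and 71.1 CPM in the flt3L-/- libraries. The 3 flt3L-/- libraries held both the lowest and the highest value, so the groups overlapped. Means were 32.1 ± 8.43 and 49.4 ± 33.0 CPM (SD, n = 3), and the log2 fold change of flt3L-/- against wt was 0.29 with a standard error (SE) of 0.43 (adjusted p = 0.976, edgeR's quasi-likelihood test with Benjamini-Hochberg adjustment over all tested genes, as for every fold change below).

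*H2-Aa* (ENSMUSG00000036594, chr17:34282744-34287823, minus strand), the alpha chain of I-A, was read at 10.9, 22.3 and 21.6 CPM in wt and at 5.86, 35.2 and 37.0 CPM in flt3L-/-. It followed *H2-Ab1* library by library. Means were 18.3 ± 6.40 and 26.0 ± 17.5 CPM (SD, n = 3), and the log2 fold change was 0.20 (SE 0.38, adjusted p = 0.977). Per kilobase of exon, the level of *H2-Aa* was between 0.330 and 0.416 of that of *H2-Ab1* in wt and between 0.349 and 0.362 of it in flt3L-/-. The chains of I-A thus kept nearly 1 ratio while their levels spanned several fold.

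*H2-Eb1* (ENSMUSG00000060586, chr17:34305867-34316674, plus strand) encodes the beta chain of I-E, a molecule that C57BL/6 mice are known not to assemble because their alpha chain gene *Ea* is defective. It was read at 5.91, 11.99 and 15.9 CPM in wt and at 2.29, 26.2 and 18.4 CPM in flt3L-/-. The lowest and highest values were again both in flt3L-/-. Means were 11.3 ± 5.02 and 15.6 ± 12.2 CPM (SD, n = 3). The log2 fold change was 0.04 (SE 0.52, adjusted p = 0.995), with a 95% interval from −1.31 to 1.39.

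*Cd74* (ENSMUSG00000024610, chromosome 18), the most abundant of the 4, was read at 34.0, 99.4 and 107 CPM in wt and at 22.9, 179.5 and 147 CPM in flt3L-/-. Pair 1 was the lowest in both groups. Means were 80.0 ± 40.01 and 116 ± 82.7 CPM (SD, n = 3). The log2 fold change was 0.26 (SE 0.30, adjusted p = 0.973). Within the pairs the log2 differences of *Cd74* were −0.57, 0.85 and 0.46, and those of *H2-Ab1* were −0.97, 0.85 and 0.92.

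**Figure D1:**
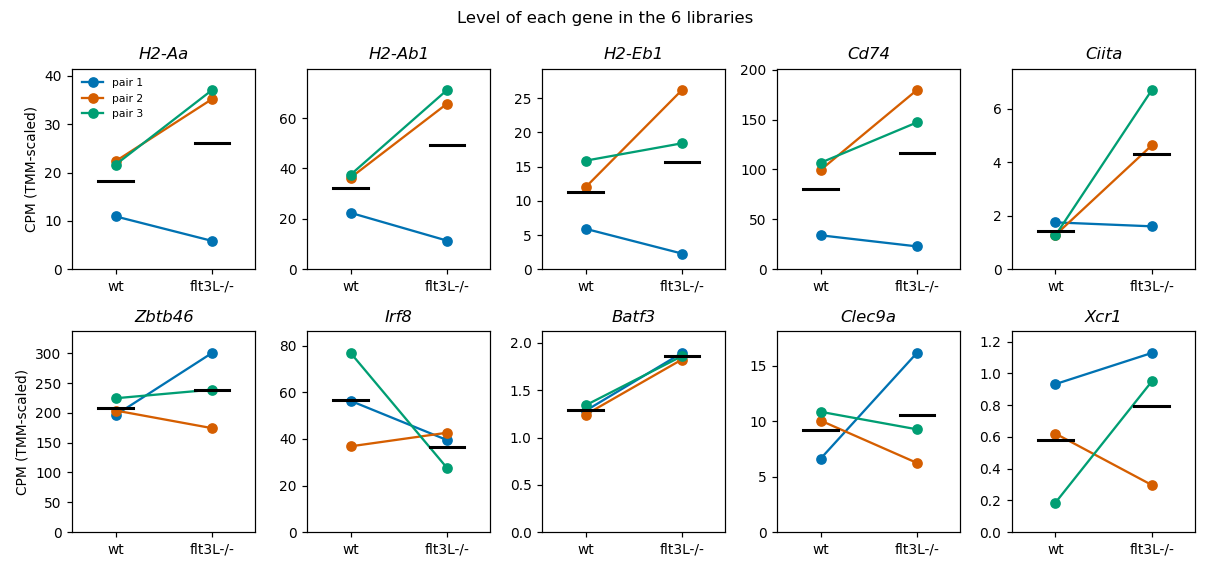
Levels of the 10 genes in CPM on TMM-scaled library sizes (vertical axes, linear, each from 0), with wt on the left and flt3L-/- on the right of each panel; points are libraries, coloured lines join the pairs of a sorting date and black bars are group means of 3 libraries. In the 4 class II panels the line of pair 1 falls and the lines of pairs 2 and 3 climb, and only in Batf3 do all flt3L-/- points (1.82 to 1.89 CPM) lie above all wt points (1.24 to 1.34 CPM).

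*Ciita* (ENSMUSG00000022504, chr16:10480059-10528418, plus strand), the coactivator that class II transcription requires, had the largest fitted fold change of the tested members. It was read at 1.75, 1.28 and 1.27 CPM in wt, which are 45, 33 and 34 counts, and at 1.60, 4.63 and 6.69 CPM in flt3L-/-, which are 44, 109 and 169 counts. The 3 wt libraries and the flt3L-/- library of pair 1 lay close together, and the flt3L-/- libraries of pairs 2 and 3 lay above them. The mean was 1.43 ± 0.275 CPM in wt and 4.31 ± 2.56 CPM in flt3L-/- (SD, n = 3). The log2 fold change was 1.40 (SE 0.61, 95% interval −0.18 to 2.99), with an unadjusted p of 0.0714 and an adjusted p of 0.973 in edgeR. *Ciita* shares 3.45% of its exon bases with *Dexi*, which the unstranded libraries cannot separate, and *Dexi* was at 11.04, 13.5 and 1.60 CPM in wt and 11.2, 4.88 and 2.53 CPM in flt3L-/-. Within pair 3 *Dexi*, like *Ciita*, was higher in flt3L-/-, with a log2 difference of 0.64, and within pair 2 it was lower, with a log2 difference of −1.45. The part of *Dexi* reads in the *Ciita* counts was not tested.

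*H2-Aa*, *H2-Ab1*, *H2-Eb1*, *Cd74* and *Ciita* shared the order of pairs, lower in flt3L-/- in pair 1 and higher in pairs 2 and 3, which makes 5 of the 9 tested members. Of all tested genes 12.5% had that order, and the order was picked after the values were seen. A log2 fold change above 0 was fitted for 8 of 9 members, against 50% of all tested genes. No member of the 9 had an adjusted p under 0.05 in edgeR, in which 0% of all genes did. The study, using an earlier edgeR version, reported genes with an adjusted p under 0.05, mostly lower in flt3L-/-, and no member was among them. The cause of this difference between the fits was not tested. No member had an unadjusted p under 0.05 either, which 3.59% of all genes had, 1.11% with a higher and 2.49% with a lower level in flt3L-/-. DESeq2 and limma-voom, the latter added after the values were seen, also called no member, and each gave 1 member, *Ciita*, an unadjusted p under 0.05 (0.0359 and 0.0432).

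**Figure D2:**
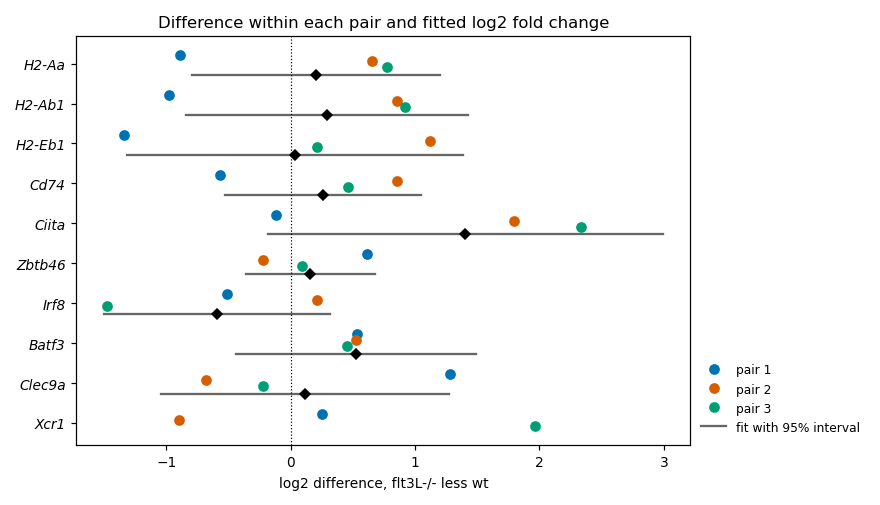
Log2 difference of flt3L-/- less wt (horizontal axis) for the 10 genes (vertical axis); coloured points are the 3 pairs with a prior count of 2, and black symbols with bars are the fitted log2 fold changes of the 9 tested genes with their 95% intervals. Every interval crosses 0, with Ciita nearest to leaving it (−0.18 to 2.99), and the 3 pairs of Batf3 lie together (0.54, 0.53 and 0.45).

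Among the genes of class II presentation there was no called change. A list of the class II chains and their peptide-editing relatives held 11 genes found in the table, 7 of which were tested. These were *H2-Aa*, *H2-Ab1*, *H2-Eb1* and *Cd74* and 3 further genes, *H2-DMa*, *H2-DMb1* and *H2-Ob*, and none passed at an adjusted or an unadjusted p of 0.05. The median log2 fold change of the 7 was 0.20, which is the value of *H2-Aa*, against 0.00 over all tested genes, and it was 0.67 without pair 1 and −0.065 without pair 2. H2-DM, which loads peptides onto class II molecules, is encoded by *H2-DMa* and *H2-DMb1*. *H2-DMb1* was read at 4.47, 3.61 and 6.03 CPM in wt and at 3.28, 8.66 and 14.4 CPM in flt3L-/-, the same order of pairs as *H2-Ab1* (log2 fold change 0.71, SE 0.44, adjusted p = 0.973). *H2-DMa*, which shares 10.4% of its exon bases with *Brd2*, was read at 4.32, 5.16 and 6.93 CPM in wt and at 2.77, 11.3 and 7.32 CPM in flt3L-/- (log2 fold change 0.19, SE 0.41). *H2-Ob*, a chain of the H2-DM inhibitor H2-O that is typical of B cells, had a log2 fold change of 0.00 (SE 0.32).

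All 8 genes of the list for class II transcription, which holds *Ciita* and factors that bind the X and Y boxes, were measured and tested. None passed, and the median log2 fold change was 0.09. *Rfx5*, an X box factor, was read at 26.8, 19.2 and 15.1 CPM in wt and at 15.7, 16.9 and 12.9 CPM in flt3L-/- (log2 fold change −0.40, SE 0.19, adjusted p = 0.973). It was lower in flt3L-/- in each pair, opposite to *Ciita* in pairs 2 and 3, and it shares 26.8% of its exon bases with another gene. Of the 9 genes from interferon gamma to *Ciita*, none passed with adjustment, and 1, *Ifng* itself, had an unadjusted p under 0.05. *Ifng*, the cytokine of T and NK cells that induces *Ciita*, had 22, 34 and 86 counts in wt and 11, 12 and 12 counts in flt3L-/- (log2 fold change −1.75, SE 0.56, unadjusted p = 0.0279 and adjusted p = 0.973 in edgeR). It was lower in all 3 pairs, which 11.5% of all tested genes were, and it shares 25.9% of its exon bases with a neighbouring gene model.

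Peptide loading and traffic genes had a median log2 fold change of 0.01, with none of 9 tested past either threshold. Of 6 tested co-stimulation genes, *Cd40*, the receptor through which T cells activate antigen-presenting cells and which endothelial cells also carry, was read at 18, 20.5 and 21.3 CPM in wt and at 23.1, 24.5 and 41.0 CPM in flt3L-/-. The groups of *Cd40* did not overlap, and 3.53% of all tested genes were likewise higher in flt3L-/- without overlap. Its unadjusted p of 0.0475 became an adjusted p of 0.973 in edgeR. An unadjusted p under 0.05 with a higher level in flt3L-/- was found for 1.11% of all tested genes. Of the 6 co-stimulation genes 4 had a log2 fold change above 0. The other 2 were *Cd80* (−0.49, SE 0.69) and *Cd86* (−0.07, SE 1.74).

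The transcription factors and receptors of dendritic cells did not share a direction. *Irf8* (ENSMUSG00000041515, chr8:120736358-120756694, plus strand) was the tested member with a fold change below 0. It was read at 56.3, 36.8 and 76.9 CPM in wt and at 39.5, 42.6 and 27.6 CPM in flt3L-/-. The flt3L-/- library of pair 3 was the lowest and its wt partner the highest, while in pair 2 the order was the opposite. Means were 56.7 ± 20.0 and 36.6 ± 7.95 CPM (SD, n = 3), and the log2 fold change was −0.59 (SE 0.35, 95% interval −1.50 to 0.32, adjusted p = 0.973).

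*Batf3* (ENSMUSG00000026630, chr1:191097847-191108945, plus strand) was read at 1.28, 1.24 and 1.34 CPM in wt and at 1.89, 1.82 and 1.86 CPM in flt3L-/-. These are 32 to 36 and 43 to 52 counts. It was the 1 member of 9 that was higher in flt3L-/- in all 3 pairs, as were 14.2% of all tested genes, and the 1 member whose groups did not overlap. Over all tested genes, 3.53% were higher and 2.92% lower in flt3L-/- without overlap. The log2 fold change of 0.53 had an SE of 0.37 and an adjusted p of 0.973 in edgeR. Its 95% interval ran from −0.44 to 1.49.

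*Clec9a* (ENSMUSG00000046080, chr6:129408862-129424763, plus strand) was read at 6.61, 10.05 and 10.8 CPM in wt and at 16.1, 6.24 and 9.26 CPM in flt3L-/-. Means were 9.17 ± 2.25 and 10.5 ± 5.07 CPM (SD, n = 3). It was highest in the library in which the class II genes were lowest, and the direction of its pairs was opposite to theirs, with log2 differences of 1.28, −0.68 and −0.23. The log2 fold change was 0.11 (SE 0.44, adjusted p = 0.987). *Clec9a* shares 5.59% of its exon bases with *Clec1b*, a receptor of the same gene cluster, which was at 1.09 to 2.495 CPM in wt and 2.76 to 3.60 CPM in flt3L-/-.

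*Xcr1* (ENSMUSG00000060509, chr9:123852315-123862029, minus strand), the most specific cDC1 marker of the 10, had 24, 16 and 5 counts in wt and 31, 7 and 24 counts in flt3L-/-. The values were above the limit of 3 counts in every library and overlapped between groups. Fitted without the filter on low values, its log2 fold change was 0.48 with an SE of 0.83 (adjusted p = 0.985).

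*Zbtb46* (ENSMUSG00000027583, chr2:181387762-181459426, minus strand) was read at 196, 204 and 224 CPM in wt and at 300.3, 174 and 239 CPM in flt3L-/-. The log2 fold change was 0.16 (SE 0.20, 95% interval −0.36 to 0.68, adjusted p = 0.973). Its level per kilobase was between 0.129 and 0.165 of that of *Pecam1*, the endothelial adhesion molecule CD31, in wt and between 0.115 and 0.156 of it in flt3L-/-. *Zbtb46* was at this level in the wt library of pair 1 too. In that library *Flt3* had 0 counts, while *Itgax* had 98, *Clec9a* 170 and *Xcr1* 24 counts. The part of any cell type in the level of *Zbtb46* was not tested.

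**Figure D3:**
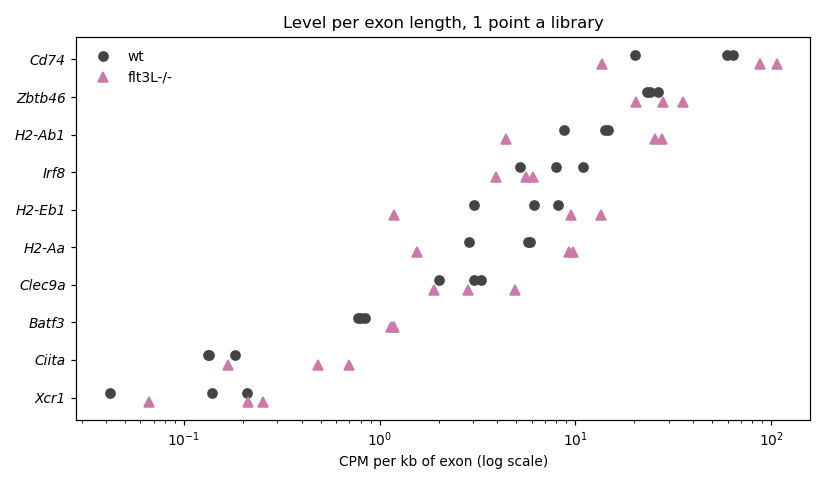
Level of the 10 genes per kilobase of exon (CPM per kb, logarithmic axis), 1 point for each library, with wt and flt3L-/- in separate colours. Cd74 and Zbtb46 lead in both groups, and Ciita and Xcr1 lie lowest, with Ciita at a mean of 0.150 in wt and 0.452 in flt3L-/-.

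Per kilobase of exon, the order of the mean levels in wt was *Cd74* (47.7 ± 23.8 CPM per kb, SD, n = 3), *Zbtb46* (24.5 ± 1.70), *H2-Ab1* (12.5 ± 3.28), *Irf8* (8.03 ± 2.84), *H2-Eb1* (5.79 ± 2.58), *H2-Aa* (4.82 ± 1.69), *Clec9a* (2.78 ± 0.683), *Batf3* (0.807 ± 0.0312), *Ciita* (0.150 ± 0.0288) and *Xcr1* (0.130 ± 0.0842). Between neighbours in this order the ranges of the libraries were apart for *Zbtb46* over *H2-Ab1*, *Clec9a* over *Batf3* and *Batf3* over *Ciita*, and overlapped for the other 6. In flt3L-/- the order was the same except that *Irf8* stood below *H2-Eb1* and *H2-Aa*, and only *Clec9a* over *Batf3* and *Batf3* over *Ciita* were apart.

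Markers of other cells also varied between the libraries. In bulk RNA, fewer cells of a type and less RNA per cell cannot be told apart. The summed level of 8 leukocyte markers was 248, 784 and 1631 CPM in wt and 350, 873 and 211 CPM in flt3L-/-, and that of *H2-Aa*, *H2-Ab1*, *H2-Eb1* and *Cd74* together was 73.2, 170.1 and 182 CPM in wt and 42.4, 307 and 274 CPM in flt3L-/-. In wt the sums took the same order of libraries. In flt3L-/- they did not, since the library of pair 3 had the lowest leukocyte sum of all 6 and the second highest class II sum. The class II sum was 0.295, 0.217 and 0.111 of the leukocyte sum in wt and 0.121, 0.351 and 1.30 times it in flt3L-/-, ratios that were formed after the values were seen. The part of the leukocyte content in the class II levels was not tested.

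The same library of pair 3 was low in the integrin gene *Itgax*, which encodes CD11c, the standard surface marker of dendritic cells. *Itgax* had 98, 319 and 452 counts in wt and 45, 132 and 8 counts in flt3L-/- (log2 fold change −2.36, SE 1.04, unadjusted p = 0.076 and adjusted p = 0.973 in edgeR). It was lower in flt3L-/- in each of the 3 pairs, although the groups overlapped. *Wdfy4*, which cDC1 cells need to cross-present antigen, had 9, 80 and 90 counts in wt and 6, 34 and 1 counts in flt3L-/- (log2 fold change −2.18, SE 1.15, adjusted p = 0.973). *Cd209a*, the DC-SIGN gene of cDC2 and monocyte-derived cells, had 0, 54 and 82 counts in wt and 17, 12 and 0 counts in flt3L-/-. Not all dendritic genes were low in the flt3L-/- library of pair 3. There *Xcr1* had 24 counts, *Clec9a* was at 9.26 CPM and *Relb*, a factor of dendritic cell maturation that other cells also make, was at 87.98 CPM, its highest value in the 6 libraries. The lectin genes *Clec10a* and *Mgl2* of cDC2 cells and macrophages had 0, 20 and 32 and 1, 17 and 21 counts in wt, and 10, 33 and 4 and 2, 46 and 9 counts in flt3L-/-, so that both were higher in flt3L-/- in pairs 1 and 2 and lower in pair 3.

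**Figure D4:**
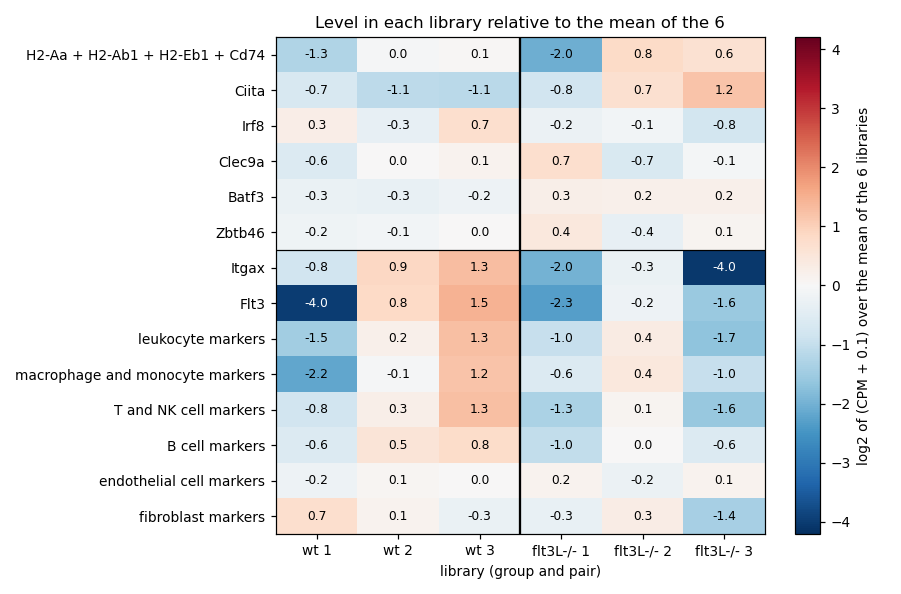
Colours and printed values give the log2 of (CPM + 0.1) in each library over the mean of the 6 libraries, for members (rows above the line) and for genes or summed marker lists of other cells (rows below it); the columns are libraries, wt left of the line. In the last column, the flt3L-/- library of pair 3, the class II sum is 0.65 above its mean and Itgax 4.04 below its mean.

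Lists of cell types were read for the same libraries. Of 12 genes of the conventional dendritic lineage, all tested, and of 11 tested cDC1 genes, none had an unadjusted p under 0.05, and the median log2 fold changes were −0.08 and −0.27. Of 9 tested cDC2 genes 1 did, *Cd1d1*, which presents lipids and is not restricted to dendritic cells, at a log2 fold change of −0.79 (SE 0.28, unadjusted p = 0.04 and adjusted p = 0.973 in edgeR). The cDC2 median was −0.80, and it was −0.25 without pair 3 and −1.27 without pair 2. Lists of other cells were low too, with medians of −0.87 for T and NK cells, −0.65 for fibroblasts, −0.59 for leukocytes and −0.46 for pericytes and smooth muscle. Medians were −0.05 for macrophages and monocytes, 0.17 for endothelial cells and 0.37 for cardiomyocytes. The median of the dendritic lineage was −0.50 without pair 1 and −0.0077 without pair 3. Of 12 plasmacytoid dendritic genes 5 were tested, none with an unadjusted p under 0.05, and their defining gene *Siglech* had at most 5 counts.

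B cells, which also carry class II, were at or near the detection limit. None of 8 B cell markers passed the filter on low values, 7 of them had 0 counts in some library, and their summed level was between 0.947 and 3.50 CPM over the 6 libraries. Macrophage and monocyte markers summed to 210, 907 and 2158 CPM in wt and to 639, 1279 and 487 CPM in flt3L-/-, with none of 15 at an unadjusted p under 0.05. Endothelial markers were high in every library, at 7447, 9140 and 8811 CPM in wt and 9638, 7374 and 9617 CPM in flt3L-/-, with none of 10 at that level. Of 10 tested T and NK cell genes, 3 (*Klrb1c*, *Gzma* and *Prf1*) were lower in flt3L-/- with an unadjusted p under 0.05, as were 2.49% of all tested genes, and an adjusted p of 0.973 in edgeR. These 3 are genes of cytotoxic and NK cells. The T cell genes *Cd3e*, *Cd3d*, *Cd4* and *Cd8a* had log2 fold changes of 0.22, 0.39, 1.05 and 0.36, and *Cd3g* had −0.30. Their SEs were between 0.54 and 1.02. Each of these T cell genes was higher in flt3L-/- in pairs 1 and 2 and lower in pair 3. Lower values with an unadjusted p under 0.05 were also found for 3 of 9 fibroblast genes and 2 of 10 pericyte and smooth muscle genes, while 1 of 6 tested cardiomyocyte genes was higher. No gene of any list was called after adjustment. The part of these cells in the levels of the members was not tested.

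The genes whose levels over the 6 libraries were most like the mean log2 level of *H2-Aa*, *H2-Ab1*, *H2-Eb1* and *Cd74* were, by Pearson's r, *Ndufb10* (0.992), *Trappc1* (0.991), *Atpaf1* (0.989), *Rnaseh2c* (0.987), *Cox14* (0.984) and *Galt* (0.982), out of 13466 genes compared. With 6 points that share sorting dates, this is a description of these libraries. Pearson's r leaves out the size of the changes. Over the 6 libraries *Ndufb10* ran from 51.1 to 73.5 CPM and *H2-Ab1* from 11.4 to 71.1 CPM. Among the other members r was 0.59 for *Ciita*, 0.05 for *Batf3*, −0.17 for *Irf8*, −0.55 for *Clec9a*, −0.57 for *Xcr1* and −0.62 for *Zbtb46*.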

How the data were processed

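Cardiac SP cells of 3 wt and 3 flt3L-/- sorts were sequenced as unstranded SMART-Seq v4 libraries. The authors deposited raw read counts per gene. By the study's methods and the submitters' processing notes, single reads were mapped to mm10 with STAR 2.5.2a and counted per Ensembl gene with QuasR, and a read with up to 10 hits was placed at its best hit or at random among equally good ones, so counts of similar paralogs are less certain. Names, exons and positions came from a GENCODE annotation of GRCm38, which held 50376 of 50600 genes.

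Protein-coding genes above 1 CPM in at least 2 libraries (13475) were fitted in edgeR 4.0.16 (R 4.3.3; TMM, glmQLFit and glmQLFTest, legacy method) with sorting date as a covariate. P-values were adjusted over all 13475 genes by Benjamini and Hochberg. The SE follows from the fold change and F statistic, intervals are at 95%, and log2 differences within pairs used a prior count of 2. The script was tested on simulated data. Libraries sorted on the same date are paired by the labels. Deviations from group means correlated at 0.180, 0.104 and 0.116 within dates, and between −0.354 and 0.247 across dates, so the pairing rests on the labels. No library was a copy of another (chi-square per degree of freedom of 38.8 or more). Each library pooled 4 mice, so p-values measure the spread between pooled sorts.

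Marker and pathway lists were for class II chains, their transcription, interferon gamma to *Ciita*, peptide loading, co-stimulation, dendritic lineage, cDC1, cDC2 and plasmacytoid cells, B cells, macrophages, T and NK cells, leukocytes, endothelium, pericytes, fibroblasts and cardiomyocytes. The members and lists were chosen with earlier results of these data known. Named genes are the members, *Flt3l*, *Flt3*, the first 3 of each marker list, of each other list the 2 most abundant and the 2 with the smallest p, and the 6 genes most like the class II mean, as far as they bear on the text. *H2-DMa*, *H2-DMb2*, *H2-Ob*, *H2-Oa*, *H2-Eb2*, *Prf1*, *Cd4*, *Cd8a* and the overlapping genes *Dexi*, *Clec1b* and *Brd2* were added after their values were seen. Alternatives were other scalings, filters, DESeq2 1.42.0, limma-voom (limma 3.58.1), no block, and each pair left out.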

Additional observations from a re-analysis of the deposited data

How the results depend on the processing

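No member was called by edgeR, DESeq2 or limma-voom under any alternative run, and over these the smallest adjusted p of a member was 0.557, for *Irf8* without pair 2. Over all genes, DESeq2's Wald test called 21 genes against 0 in edgeR. With all libraries kept, 89 of 90 alternative values kept direction and side of the threshold, and the exception was *H2-Eb1*, whose log2 fold change was −0.0031 with library size alone as the scaling. Leaving out each pair in turn gave log2 fold changes from −0.10 to 0.71 for *H2-Aa*, −0.052 to 0.89 for *H2-Ab1*, −0.57 to 0.67 for *H2-Eb1*, −0.069 to 0.66 for *Cd74*, −0.46 to 0.51 for *Clec9a* and −0.068 to 0.33 for *Zbtb46*, all of which changed sign, and from 0.87 to 2.12 for *Ciita*, −1.02 to −0.15 for *Irf8* and 0.49 to 0.56 for *Batf3*, which did not. The highest values of the 4 class II genes and *Ciita* were those without pair 1, where *H2-Aa*, *H2-Ab1*, *Cd74* and *Ciita* had an unadjusted p under 0.05 and *H2-Ab1* had an unadjusted p of 0.00753 in edgeR and an adjusted p of 0.919. List medians moved too, among them from 0.036 to 0.24 for interferon gamma to *Ciita*, −0.065 to 0.67 for class II chains, −1.27 to −0.25 for cDC2, −0.50 to −0.0077 for the dendritic lineage, −1.44 to −0.11 for T and NK cells and −1.43 to 0.55 for leukocytes. Without the replicate block of the pairing, *Ciita* had a log2 fold change of 1.58 (unadjusted p = 0.0229, adjusted p = 0.998 in edgeR), *H2-Ab1* 0.62 and *H2-Eb1* 0.47, and no gene was called, as with the block. The causes were not tested.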
